A study of Drosophila melanogaster with 69 samples.

Results

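The regions described here were the peaks of total histone H3 in control Drosophila melanogaster embryos at stage 17, at the end of embryogenesis, and at cycle 14, the blastoderm. All peaks of the 2 pooled narrow peak lists for H3 were members, 4140 at stage 17 and 2895 at cycle 14, which makes 7035 of the 75377 peaks in the 22 lists of the series. A peak was named recurrent when it shared at least 1 bp with a peak of the other stage. By this rule 986 of the stage 17 peaks were recurrent and 3154 were seen at stage 17 only, whereas 1136 of the cycle 14 peaks were recurrent and 1759 were seen at cycle 14 only.

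The series profiled histone marks and HP1a by CUT&Tag, in which an antibody guides a transposase to chromatin, and H3 served as its loading control. The stage 17 list pooled 2 samples of control embryos, both labelled replicate 1. Controls of both stages were labelled WT and T180, and the study's methods give a TRiP line as the control stock. The cycle 14 list was named in the labels of 4 control samples and also of 2 triple mutant samples, so the libraries behind it could not be settled. Its own name carried H3, the control label T180 and the date of the stage 17 samples, a date that some of the control samples shared. The labels of the 4 control samples carried different dates and named the antibody as H3 or as H3_mouse. Both stage 17 labels carried the same date and the name H3, so date and antibody may differ along with stage. Embryos of both stages were whole, pooled, fixed in PFA and frozen, and 1 pg of lambda phage DNA was added as a spike-in. Tissues were therefore mixed, and with 1 pooled list per stage no difference between stages could be tested. The 95% Wilson intervals given below cover counting error over peaks only, and peaks are not replicates of a stage.

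H3 is a core subunit of nearly every nucleosome, so an H3 profile has no target locus of its own. A peak in it marks a place where more fragments ended up than in its surroundings, which depends on nucleosomes, on access for the transposase and on how many genomic copies of a sequence are folded onto 1 position of the assembly. In Drosophila, satellite and transposon sequence is gathered in the pericentromere, where H3K9 methylation and HP1a build constitutive heterochromatin. Cycle 14 is when bulk zygotic transcription starts, and by stage 17 the tissues of the larva have differentiated.

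The sequences below show what some peaks of each kind looked like. They were taken from peaks of high fold (fragments at the summit over the local background, as the peak caller gave it). The Ubi-p63E, knk and cpo stretches were added, after their values were seen, to show a repeated coding exon, a single-copy coding exon and a CA-rich intron. Each is the plus strand of the RefSeq copy of the Release 6 genome (dm6), with short motifs in capitals wherever they stand on either strand. They are AAGAG, which reads CTCTT on the other strand, then the dinucleotide run CACAC, which there reads GTGTG, and lastly the triplet pair CAGCAG, which reads CTGCTG.
Recurrent, between genes, chr2L:23513073-23513192: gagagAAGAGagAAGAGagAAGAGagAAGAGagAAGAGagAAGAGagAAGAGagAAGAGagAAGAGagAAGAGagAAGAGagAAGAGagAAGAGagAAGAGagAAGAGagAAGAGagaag
Recurrent, Ubi-p63E coding exon, chr3L:3900362-3900661: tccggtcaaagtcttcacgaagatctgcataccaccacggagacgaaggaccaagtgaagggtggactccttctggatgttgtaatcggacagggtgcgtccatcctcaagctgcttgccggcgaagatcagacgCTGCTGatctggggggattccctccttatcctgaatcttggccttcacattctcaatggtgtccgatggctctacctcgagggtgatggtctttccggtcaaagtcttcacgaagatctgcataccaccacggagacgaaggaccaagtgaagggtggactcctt
Stage 17 only, between genes, chrX:20219310-20219609: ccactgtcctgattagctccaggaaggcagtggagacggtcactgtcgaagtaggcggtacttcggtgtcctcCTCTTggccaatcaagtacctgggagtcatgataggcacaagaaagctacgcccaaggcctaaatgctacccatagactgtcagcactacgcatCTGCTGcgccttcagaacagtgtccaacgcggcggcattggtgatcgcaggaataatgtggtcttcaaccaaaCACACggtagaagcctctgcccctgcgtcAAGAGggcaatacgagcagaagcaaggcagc
Stage 17 only, CARPB intron, chrX:9842595-9842894: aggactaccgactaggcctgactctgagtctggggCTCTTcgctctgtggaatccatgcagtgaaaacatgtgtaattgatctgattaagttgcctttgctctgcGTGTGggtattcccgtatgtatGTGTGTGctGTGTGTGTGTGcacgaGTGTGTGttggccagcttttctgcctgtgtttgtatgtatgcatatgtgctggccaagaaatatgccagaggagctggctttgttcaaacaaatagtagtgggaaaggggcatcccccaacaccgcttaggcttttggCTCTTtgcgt
Stage 17 only, knk coding exon, chr3R:10122735-10123034: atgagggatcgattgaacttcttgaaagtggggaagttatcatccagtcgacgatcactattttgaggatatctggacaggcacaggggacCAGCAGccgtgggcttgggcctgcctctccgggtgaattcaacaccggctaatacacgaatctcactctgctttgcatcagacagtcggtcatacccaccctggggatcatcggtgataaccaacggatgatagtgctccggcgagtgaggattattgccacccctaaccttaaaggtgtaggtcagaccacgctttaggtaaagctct
Cycle 14 only, cpo intron, chr3R:17928895-17929093: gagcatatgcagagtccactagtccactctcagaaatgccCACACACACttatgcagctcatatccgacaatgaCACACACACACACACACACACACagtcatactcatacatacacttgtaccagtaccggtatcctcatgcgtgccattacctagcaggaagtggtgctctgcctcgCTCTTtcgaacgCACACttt

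The recurrent stretch between genes at the end of 2L matched itself at every base when shifted by 7 bp. The Ubi-p63E stretch repeated at 228 bp, the length of the ubiquitin unit that this polyubiquitin gene encodes several times over. The stage 17-only stretches had no such period, and their best matches at any shift reached 38.5%, 34.9% and 34.4% of bases. As Ubi-p63E was chosen as repeated and knk as single-copy, this difference describes the printed examples only. The cpo intron, chosen for holding the run, carried 6 non-overlapping copies of CACAC within 199 bp. The stage 17-only CARPB intron carried 5 within 300 bp, read on either strand.

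Most peaks were seen at 1 stage only, and the list of stage 17 was the less recurrent of the lists. Recurrent peaks made up 23.8% (22.5 to 25.1) of the stage 17 list and 39.2% (37.5 to 41.0) of the cycle 14 list. The lists met in 1143 overlapping pairs, 146 stage 17 peaks spanned more than 1 cycle 14 peak, and 547 recurrent cycle 14 peaks lay wholly inside a stage 17 peak. Near misses were few, since 107 of the stage 17-only peaks (3.39%) and 167 of the cycle 14-only peaks (9.49%) lay within 500 bp of a peak of the other list. The median distance to the nearest peak of the other list was 22840 bp for stage 17-only and 10125 bp for cycle 14-only peaks. When an overlap of at least 50% of both peaks was required, recurrence came to 11.3% of the stage 17 list and 16.1% of the cycle 14 list.

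Widths differed throughout. Peaks were 353 bp wide at stage 17 and 187 bp at cycle 14 by median, and the lists covered 1.33% and 0.521% of the assembled arms. The shortest stage 17 peak had 218 bp, a width shared by 252 peaks, and the shortest cycle 14 peak had 117 bp, shared by 171. Of the cycle 14 peaks, 1798 (62.1%) were shorter than any stage 17 peak, so the shortest width that each peak call allowed moved with the width difference, and its part in the result was not tested. The depth of the pooled lists also differed. The lowest local background was 8.615 fragments at stage 17 and 11.56 fragments at cycle 14, a ratio of 0.745, and the median summit held 27.0 fragments at stage 17 and 32.0 at cycle 14.

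Recurrence was highest among the strongest peaks. Of the 100 peaks of highest fold, 94.0% (87.5 to 97.2) at stage 17 and 87.0% (79.0 to 92.2) at cycle 14 were recurrent. In the strongest decile of each list the share was 66.7% at stage 17 and 71.0% at cycle 14, whereas in the weakest decile it was 14.7% at stage 17 and 34.6% at cycle 14. There was no steady order below the median, with 13.0 to 14.7% in the weaker deciles at stage 17, and at cycle 14 the weakest decile stood above the 24.6% of the one before it. Recurrence fell with GC content at stage 17, being 61.0% in peaks of 30 to 40% GC and 13.0% in peaks of 50 to 60% GC. No such order was seen at cycle 14, where the same bins gave 31.3% and 40.3%.

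What recurrent peaks shared was sequence present in more than 1 place. At least 50% of the bases lay in 31-mers that occur repeatedly in the assembly for 79.5% (76.9 to 81.9) of recurrent stage 17 peaks and 81.6% of recurrent cycle 14 peaks, against 18.4% (17.1 to 19.8) of stage 17-only and 46.1% of cycle 14-only peaks. Across the assembly 14.7% of bases were of this kind, with 5.84% on the arms and 68.6% in the pericentromere. Seen from the other side, peaks without any repeated 31-mer were recurrent in 6.05% (154 of 2546) of cases at stage 17 and 15.6% (164 of 1052) at cycle 14, whereas peaks with at least 50% of such bases recurred in 57.4% (784 of 1365) and 53.3% (927 of 1738). On the arms the shares with at least 50% repeated 31-mers were 66.0% of recurrent and 7.85% of stage 17-only peaks, and 68.2% of recurrent and 26.1% of cycle 14-only peaks. In the pericentromere they were 93.9% of recurrent and 74.1% of stage 17-only peaks, but nearly equal at cycle 14, with 94.6% of recurrent and 93.8% of cycle 14-only peaks. Reads from all copies can be placed on any of them, and the part of copy number in these peaks was not tested.

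**Figure D1:**
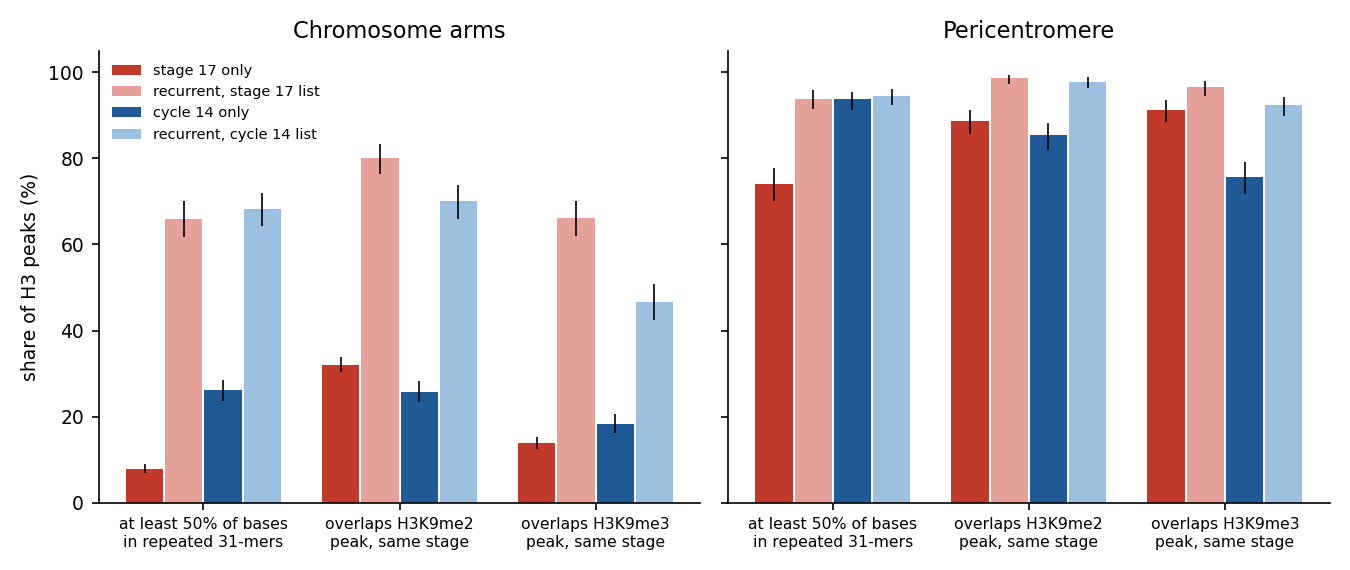
Share of H3 peaks (%) in each class that lay at least 50% in repeated 31-mers or overlapped an H3K9me2 or H3K9me3 peak of the same stage, on the arms (left) and in the pericentromere (right), with 95% Wilson intervals as bars. On the arms, recurrent peaks of both lists stand above the peaks of either stage alone in each measure, with 66.0% of recurrent stage 17 and 7.85% of stage 17-only peaks at least 50% within repeated 31-mers.

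The recurrent peaks of highest fold lay in the pericentromere. The peak of highest fold at both stages, chr2R:870109-870645 between genes, had 20.2 at stage 17 and 11.5 at cycle 14. At the proximal end of 2L, chr2L:23512747-23513699, the fold was 13.7 at stage 17 and 10.9 at cycle 14. The next, chr2R:1825659-1826729 between genes, had 11 at stage 17 and 7.54 at cycle 14. A narrower one at chr2R:748667-749021 ran the other way, with 9.98 at stage 17 and 11 at cycle 14. On X, the peak at chrX:22432901-22433307 overlapping a rover element did so too, with 8.32 at stage 17 and 10.8 at cycle 14. Within an intron of Myo81F, a myosin gene whose introns reach far into 3R heterochromatin, the peak at chr3R:1943202-1944306 had 7.32 at stage 17 and 3.63 at cycle 14, with a GC content of 54.2%. One further peak, with 19.1 at stage 17 and 11.2 at cycle 14, is given by its fold alone. The widest recurrent stage 17 peak, chr3R:172848-175908, had 3061 bp and a fold of 3.07, against 2.88 at cycle 14. The widest of the cycle 14 list, chr4:1295049-1296904 with 1856 bp, overlapped a HeT-A element, the retrotransposon of fly telomeres, and had 5.16 at stage 17 and 5.02 at cycle 14.

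Very AT-rich peaks were few at either stage. A total of 3 stage 17 peaks had a GC content under 20%, all of them recurrent, against 6 cycle 14 peaks, of which 2 were recurrent and 4 were not. Short tandem repeats, defined as at least 90% of bases matching at a shift of 1 to 12 bp over 200 bp, filled 0 of 3154 stage 17-only peaks, which allows up to 0.122% by the Wilson interval. They filled 10 of 984 recurrent stage 17 peaks (1.02%), 5 of 1759 cycle 14-only peaks (0.284%) and 10 of 1133 recurrent cycle 14 peaks (0.883%), against 0.0220% of all windows of this length.

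The fold was compared across the 986 stage 17 peaks paired with the cycle 14 peak they overlapped most. Only peaks called in both lists enter these pairs, so they cannot show whether H3 levels agreed between stages. Over all peaks the median fold was 2.60 at stage 17 and 2.44 at cycle 14. In the pairs the values were as follows. The median fold was 2.86 at stage 17 and 2.55 at cycle 14, and the median ratio was 1.11 (interquartile range 0.999 to 1.26). The fold was higher at stage 17 in 738 pairs (74.8%), at least 1.5 times higher in 60 and at least 1.5 times lower in 3. Summits were at most 100 bp apart in 519 pairs (52.6%), and the stage 17 peak was the wider in 799. The fold values of the stages had a Pearson correlation of 0.782 and a Spearman correlation of 0.476 over these pairs, which share their base composition and copy number, so the values are a description.

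**Figure D2:**
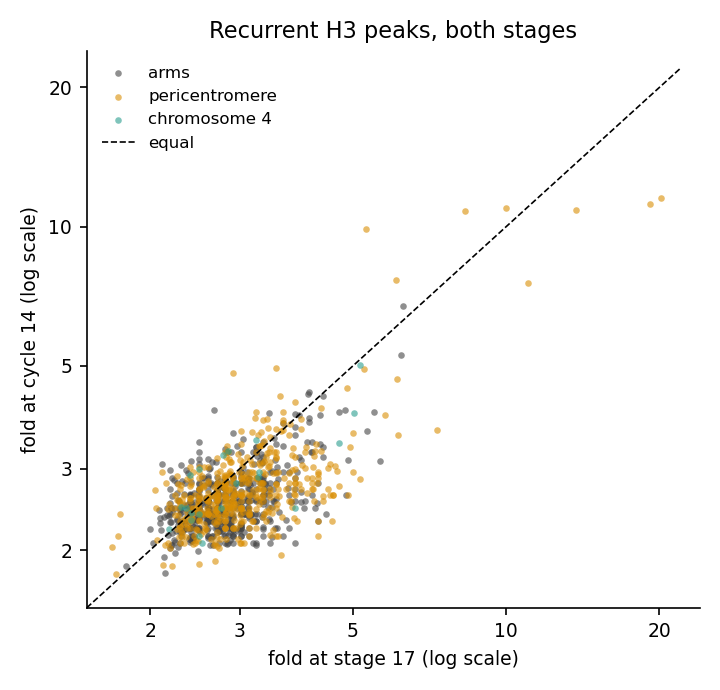
Fold over local background at stage 17 (x axis) and cycle 14 (y axis) for each of the 986 recurrent pairs, both axes logarithmic, coloured by compartment, with a dashed line at equal fold. Most points lie near or below the line, with a few pericentromeric peaks reaching 20.2 at stage 17 and 11.5 at cycle 14.

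Most peaks seen at stage 17 only lay in single-copy sequence of the arms, and many of them in coding exons. Of these 3154 peaks, 2638 (83.6%) lay on the arms and 75.8% held no repeated 31-mer, and 56.5% had their midpoint in a coding exon. The 495 in the pericentromere differed, with 5.05% in coding exons. On the arms the midpoint fell in a coding exon for 66.3% (1749 peaks) of the stage 17-only peaks, against 25.9% (316 peaks) of the cycle 14-only peaks and 19.4% of arm bases. Recurrent peaks stood at 31.2% in the stage 17 list and 28.9% in the cycle 14 list. Introns held 18.8% of the stage 17-only and 35.1% of the cycle 14-only peaks, and sequence between genes held 11.7% of the stage 17-only and 25.8% of the cycle 14-only peaks. Midpoints in a 3' UTR made up 1.52% of the stage 17-only and 7.22% of the cycle 14-only peaks, beside 5.57% of arm bases.

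**Figure D3:**
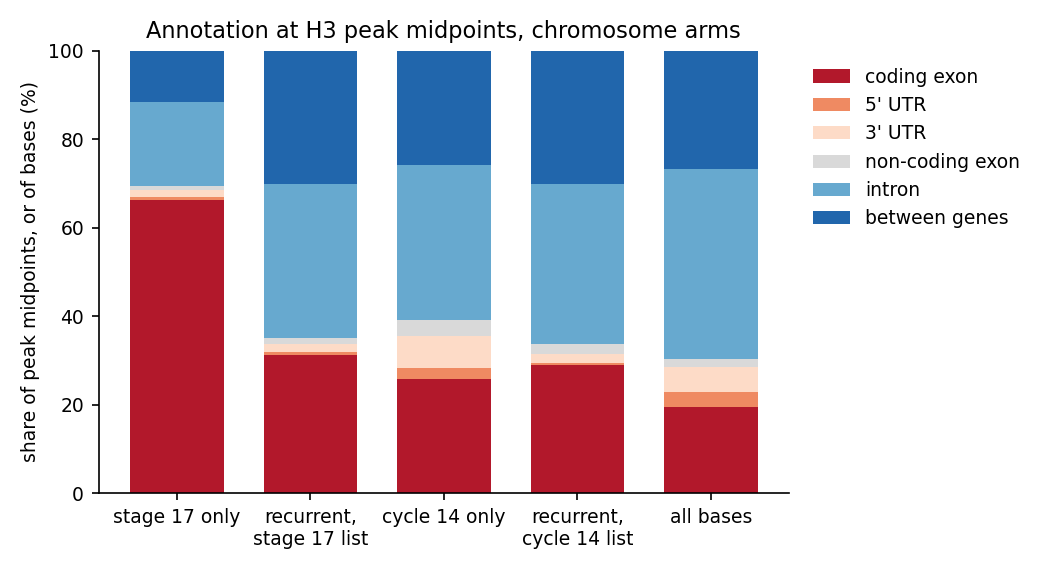
Share (%) of H3 peaks on the chromosome arms with their midpoint in each annotated feature, by class, beside the share of all arm bases. Coding exons take 66.3% of the stage 17-only peaks and 25.9% of the cycle 14-only peaks.

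GC content differed in the same way. The median was 52.9% in stage 17-only peaks (interquartile range 48.8 to 56.6), against 46.3% in cycle 14-only peaks (41.6 to 51.1), and 47.3% and 47.5% in recurrent peaks of the stage 17 and the cycle 14 list. Coding bases of the arms had 53.6% GC and intron bases 39.9%. Within coding exons the stage 17-only peaks still had a median of 55.0%, against 50.8% in cycle 14-only peaks, and within introns they had 49.7% against 46.5%. Around the summits of stage 17-only arm peaks the mean GC content was 54.2% at the summit and 47.3% at 490 bp before it. Around cycle 14-only summits it was 48.0% at the summit and 42.4% at that distance. Base content moved with both the class and the feature, and its part in the coding exon share was not tested.

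**Figure D4:**
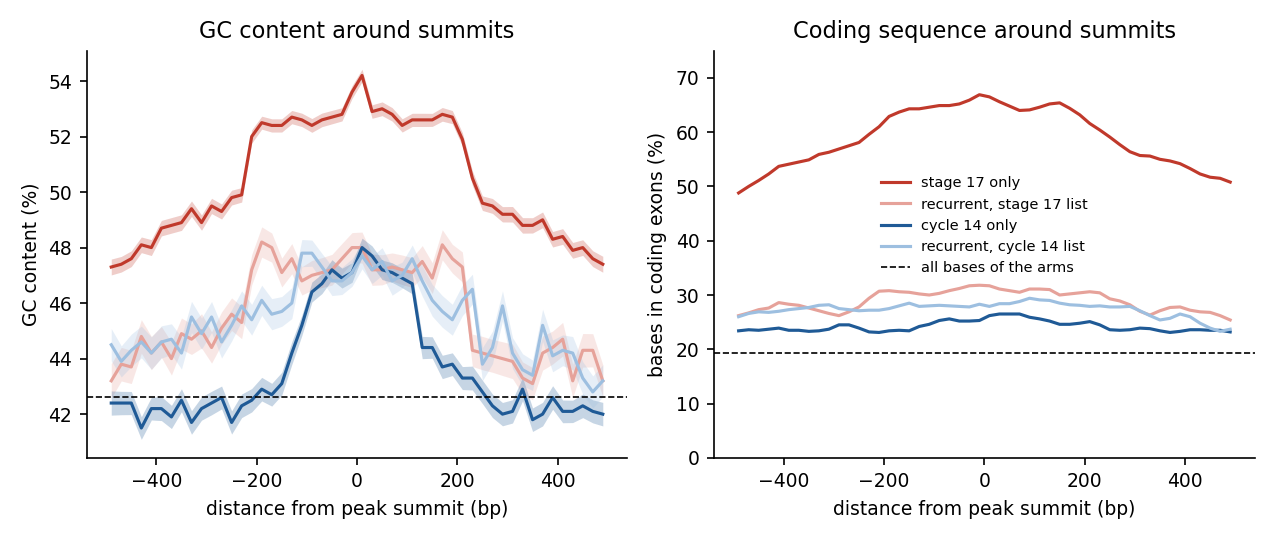
Mean GC content (%, left) and share of bases in coding exons (%, right) in 20-bp bins by distance from the peak summit, for arm peaks of each class, with bands of ± 1 SE over peaks for GC content and a dashed line at the level of all arm bases. The stage 17-only line is highest in both panels, at 54.2% GC and 66.5% coding at the summit.

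Coding peaks seen at stage 17 only were spread over 1489 protein-coding genes, of which 218 had more than 1. Cycle 14-only coding peaks lay in 293 genes, and 40 genes were in both sets, 2.69% of the first and 13.7% of the second. Of all 13945 protein-coding genes, 2.10% were in the cycle 14-only set and 10.7% in the stage 17-only set. The shared portions thus stood near the shares over all genes. The median coding exon that held the midpoint had 956 bp for stage 17-only and 552 bp for cycle 14-only peaks, beside 729 bp for coding bases at large. It had 1355 bp for recurrent peaks of the stage 17 list and 1365 bp for those of the cycle 14 list, and exon length was not taken into account in these shares. Ank2, a giant neuronal ankyrin, had the most with 7 stage 17-only coding peaks. Svil, the fly supervillin, had 6 stage 17 peaks of fold 2.29 to 3.02 and 4 cycle 14 peaks of 2.35 to 2.79. In sick there were 6 stage 17 peaks of fold 2.50 to 2.87 and 2 cycle 14 peaks of 2.23 to 2.47. In wb, which encodes a laminin alpha subunit, there were 4 stage 17 peaks of fold 2.47 to 3.22. Dscam2, an immunoglobulin cell adhesion receptor, had 4 stage 17 peaks of fold 2.22 to 2.60 and 1 cycle 14 peak of 2.15. None of the peaks in these last 4 genes was recurrent.

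By fold, the leading stage 17-only peak was chrX:20218982-20219937 between genes with 4.33, where 97.6% of bases lay in repeated 31-mers, followed by the CARPB intron with 4.08 and the coding exon of knk with 4.06. The product of knk, knickkopf, organises chitin in the cuticle and trachea that form late in embryogenesis. Next, at 3.95 each, came exons of hppy and CG32264 and a pericentromeric Rt1a element on 2R. The 3 widest were 1590, 1554 and 1512 bp, in an intron of rl (a MAP kinase gene), in coding sequence of Sec31 (a COPII coat gene) and between genes on 3L.

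Genes built of internal repeats had peaks at both stages. Muc14A, a mucin gene of low GC content, held 8 stage 17 peaks of fold 3.02 to 4.37, all recurrent, and 15 cycle 14 peaks of fold 2.02 to 4.30, of which 9 were recurrent. Muc12Ea held 4 at stage 17 and 6 at cycle 14, and dpy, which encodes a giant extracellular matrix protein, held 5 at stage 17 and 6 at cycle 14. In sls, the gene of the titin-like muscle protein Sallimus, there were 6 at stage 17 and 4 at cycle 14, with 3 recurrent at each stage. Ubi-p63E had folds of 5.51 and 6.21 in its 2 stage 17 peaks, against 3.45 to 5.27 in its 3 cycle 14 peaks. CG44666 held the strongest arm peak at either stage, with 6.26 and 116 fragments at stage 17 and 6.72 and 109 fragments at cycle 14. These genes were named after their values were seen.

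Among cycle 14-only peaks, 2 pericentromeric ones had folds of 8.75 and 8.18 and are given by their fold alone. Below them came an intron of rl with 3.75 and, at 3.74 each, an H element within an intron of stol, an intron of lovit on 3L and a coding exon of Muc14A. The 3 widest had 1013, 873 and 752 bp. They lay at a Tabor element on 2L, between genes on X and in the histone gene cluster, with folds of 2.67, 3.18 and 2.65.

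Single-copy peaks that recurred were rare, and most had their midpoint within a gene. Of the 154 recurrent stage 17 peaks without a repeated 31-mer, 92 had it in a coding exon, 34 in an intron and 17 between genes. Among stage 17-only arm peaks without a repeated 31-mer the coding exon share was 69.9%. The highest fold was 4.42 at stage 17, against 2.39 at cycle 14, in an intron of the cholecystokinin-like receptor gene CCKLR-17D3 on X.

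On the arms, CA dinucleotide runs were more frequent in cycle 14-only than in stage 17-only peaks. CACACA or its complement lay within 100 bp of the midpoint in 14.2% (374 of 2638) of stage 17-only arm peaks, against 29% (354 of 1219) of cycle 14-only arm peaks. Recurrent peaks had 15.9% in the stage 17 list and 14.6% in the cycle 14 list, and windows of 200 bp tiled over the arms had 16.1%. Within introns and coding exons the run was also more frequent in cycle 14-only peaks, with 28.2% of stage 17-only and 35.5% of cycle 14-only intron peaks and 7.95% of stage 17-only and 13.3% of cycle 14-only coding exon peaks. The shorter CACAC, which CACACA contains, gave 36.2% of stage 17-only and 47.9% of cycle 14-only peaks, beside 31.7% of windows. Between genes CACACA was in 24.7% of stage 17-only and 31.1% of cycle 14-only peaks. Coding exons, where it was less frequent than in introns, held 66.3% of stage 17-only and 25.9% of cycle 14-only arm peaks. The part of feature content in the difference was not tested. For stage 17-only minus cycle 14-only it was -14.9 percentage points, with -18.7 among peaks without a repeated 31-mer and -11.3 at an overlap of at least 50% of both peaks. The printed example, chosen for holding the run, was the intron of cpo, an RNA-binding protein gene of the nervous system, with a fold of 3.21 and 44 fragments.

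CAGCAG, a triplet frequent in glutamine-rich coding sequence, ran the other way, with 28.4% of stage 17-only and 16.4% of cycle 14-only arm peaks, beside 16.6% of windows. GAGAG, the core of GAGA factor sites, was in 25.5% of stage 17-only and 31.7% of cycle 14-only arm peaks, beside 21.3% of windows. Recurrent arm peaks had it in 24.9% of the stage 17 and 24.8% of the cycle 14 list. The Zelda motif CAGGTAG was in 2.39% (1.87 to 3.04) of stage 17-only and 3.45% (2.56 to 4.62) of cycle 14-only arm peaks, beside 1.08% of windows. These intervals overlap, and recurrent arm peaks had 1.99% in the stage 17 and 1.81% in the cycle 14 list. AT-rich motifs were less frequent than in windows. TATAAA was in 6.07% of stage 17-only and 10.6% of cycle 14-only arm peaks against 20.9% of windows, and AATAT in 23.4% of stage 17-only and 31.9% of cycle 14-only arm peaks against 47.5%. CGATA, at 21.2% of stage 17-only and 23.8% of cycle 14-only arm peaks, stood near the 20.9% of windows. All motifs were read on both strands, CACACA and CAGCAG were added after values were seen, and a match is a run of letters and not a bound site.

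Few H3 peaks lay at start sites. Of 13945 protein-coding genes, 245 (1.76%) had a stage 17 peak within 250 bp of their start and 119 (0.853%) had a cycle 14 peak, and 24 had both. Among peaks, 6.63% of stage 17-only and 4.55% of cycle 14-only peaks reached such a start, and 4.76% of all bases lay that close to one. The difference of 2.08 percentage points became 0.119 when starts were not extended and 0.0362 when starts of all annotated genes were used. Wider peaks reach more starts, and width was not equalised here.

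The starts with the strongest peaks are named for each class. Stage 17-only and cycle 14-only peaks were defined by having no overlap with the other list. Different genes in these classes therefore follow largely from the definition. At stage 17 only the starts with the strongest peaks were CG14245 (3.51), CG8541 (3.50), CG32507 (3.43), Cpr72Ea (3.43), which encodes a cuticle protein, and CG32241 (3.34). At cycle 14 only they were Rx (3.10), a homeobox gene of the brain and eye, sns (3.02), whose adhesion protein works in myoblast fusion, Ptx1 (2.87), another homeobox gene, the zinc finger repressor gene Blimp-1 (2.79), and, equal at 2.71, Mst27D and the homeobox gene otp. Among recurrent starts the highest fold was at CG17698 in 3L heterochromatin, with 6.08 at stage 17 and 7.65 at cycle 14. Next at stage 17 were Muc26B with 4.11 and, at 3.85, CG32834 and the Stellate gene Ste:CG33237.

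Small multicopy genes differed in both directions between the lists. For all 18164 annotated genes, 1.82% of starts had a stage 17 peak and 1.24% a cycle 14 peak within 250 bp. Of 295 tRNA genes none had a stage 17 peak at its start, which allows a share of up to 1.02% if 3 counts are taken as the limit of a count of 0, as in the shares of 0 that follow, whereas 27 (9.15%) had one at cycle 14. These came from 19 separate peaks, all of them cycle 14-only, with folds of 1.99 to 2.95. Most of these peaks were narrower than the shortest stage 17 peak of 218 bp, and the part of this limit was not tested. The highest stood at tRNA:Leu-CAG-1-3 and tRNA:Leu-CAG-1-4, with 36 fragments, and a triplet of tRNA:Thr-CGT genes had 2.52, 2.70 and 2.74.

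The replication-dependent histone genes, which lie as a tandem cluster on 2L, had peaks at 13 of 111 starts (11.7%) at stage 17 and at 44 (39.6%) at cycle 14. That made 10 separate peaks at stage 17 and 32 at cycle 14, 7 of them recurrent in each list. The median summit held 29.5 fragments at stage 17 and 44.0 at cycle 14, but the median fold was 2.67 at stage 17 and 2.26 at cycle 14. The highest stage 17 peak was at His2A:CG33832 and His2B:CG33890 with 3.46 and the highest at cycle 14 at His3:CG33842 and His4:CG33883 with 3.20. The units are near copies, so the counts per gene are uncertain. Most cycle 14-only peaks in this cluster were also narrower than any stage 17 peak, and the part of this limit was not tested. The 5S rRNA genes, also a tandem cluster, had peaks at 23 of 100 starts at stage 17 and at 15 at cycle 14. Separate peaks there numbered 10 at stage 17 and 11 at cycle 14. No snRNA gene of 32 had a peak at its start at either stage, which allows up to 9.38%.

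Gene bodies were read against the share of all protein-coding genes touched by a peak, 15.5% at stage 17 and 7.55% at cycle 14, with no correction for gene length. Of the 8 Hox genes, which set segment identity and are long, 2 (Antp and Abd-B) had a peak at stage 17, whereas 6 had one at cycle 14. The highest cycle 14 folds there were 2.71 at Antp and Abd-B, 2.55 at Ubx and 2.54 at pb, and 10 of the 12 cycle 14 Hox peaks were cycle 14-only. Of 36 early zygotic patterning and cellularisation genes, 5 had a peak at stage 17, led by twi (3.03) and tll (2.91), and 1, croc (2.15), at cycle 14. Both twist and tailless are transcription factor genes of the blastoderm. Of 28 muscle, cuticle and neural differentiation genes, 14 had a peak at stage 17, led by knk (4.06), Tm1 (3.33) and brp (3.30), and 11 at cycle 14, led by Msp300 (3.48) and sls (3.30). One of the 92 ribosomal protein genes, RpL5 (3.19), had a peak at stage 17 and 0 of 92 did at cycle 14, which allows up to 3.26%.

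Heat shock genes gave 4 stage 17-only peaks of fold 2.70 to 2.91 in the coding exons of Hsp70Aa, Hsp70Ab, Hsp70Bb and Hsp70Bbb, which are near copies and thus uncertain, and 1 cycle 14-only peak of 2.43 in Hsp68.

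On the arms the classes were not spread evenly over chromosomes. Stage 17-only peaks numbered 13.2 per Mb on X, against 22.9 on 2L, 28.1 on 2R, 24.8 on 3L and 26.5 on 3R. Cycle 14-only peaks numbered 6.68 per Mb on X, against 11.4, 13.7, 10.9 and 11.2 on those autosomal arms. Recurrent peaks had no such gap, with 4.18 per Mb on X and 3.99 to 4.98 on the autosomal arms in the stage 17 list. The labels gave no sex for the pooled embryos. In the pericentromere of X recurrent peaks were densest, with 46.0 per Mb in the stage 17 list and 61.6 in the cycle 14 list. On chromosome 4, the small and largely heterochromatic one, 21 of 42 stage 17 peaks (50%) and 25 of 53 cycle 14 peaks (47.2%) were recurrent.

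**Figure D5:**
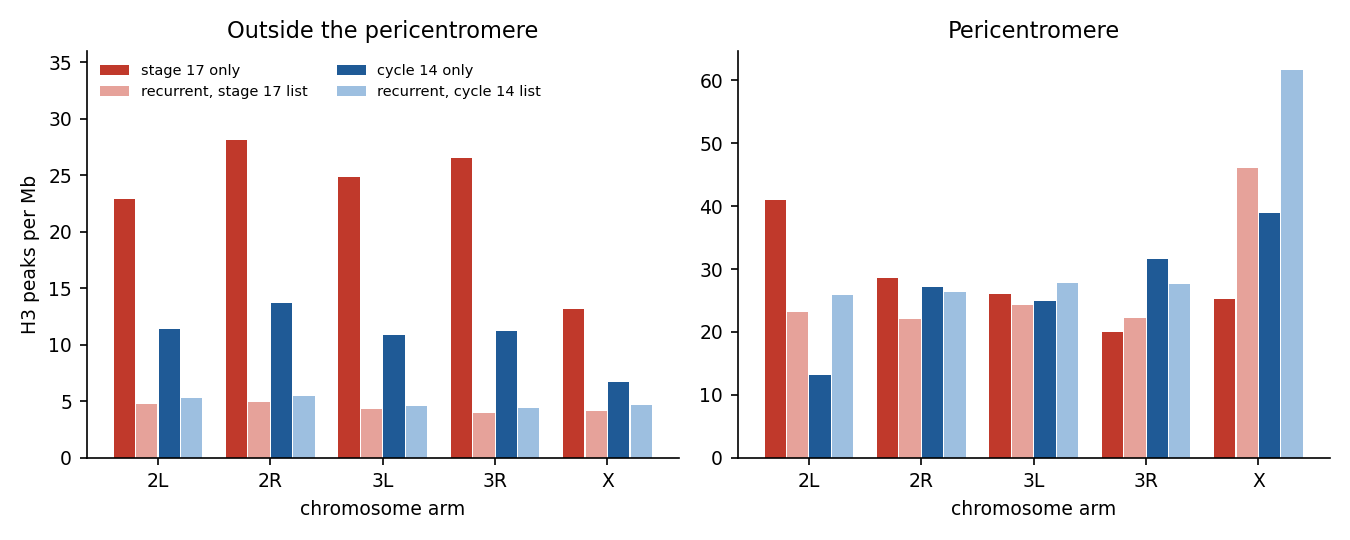
H3 peaks per Mb of each chromosome arm outside the pericentromere (left) and in it (right), with a bar for each class. Outside the pericentromere the X has 13.2 stage 17-only peaks per Mb and the autosomal arms 22.9 to 28.1, and in it the X has the most recurrent peaks per Mb, 46.0 in the stage 17 and 61.6 in the cycle 14 list.

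The pericentromere, as bounded by the borders used here, held 15.7% (14.5 to 17.0) of stage 17-only and 29.1% (27.0 to 31.3) of cycle 14-only peaks, and 46.9% and 49.1% of recurrent peaks in the stage 17 and the cycle 14 list. Within it 48.3% of stage 17 and 52.1% of cycle 14 peaks were recurrent, whereas on the arms 16% (503 of 3141) of stage 17 and 31.2% (553 of 1772) of cycle 14 peaks were. Among peaks without a repeated 31-mer the pericentromeric shares were nearly equal, differing by 0.0662 percentage points for stage 17-only minus cycle 14-only, against -13.4 over all peaks.

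Annotated transposable elements carried many of the recurrent peaks. An element was overlapped by 39.6% (36.5 to 42.6) of recurrent stage 17 and 39.7% of recurrent cycle 14 peaks, against 8.40% of stage 17-only and 21.3% of cycle 14-only peaks. On the arms the shares were 49.9% of recurrent and 5.27% of stage 17-only peaks, and 51.5% of recurrent and 19.3% of cycle 14-only peaks. In the pericentromere they were nearly equal, with 26.2% of recurrent and 23.6% of stage 17-only peaks. At cycle 14 they were 25.8% of recurrent and 24.4% of cycle 14-only peaks there. Elements covered 5.93% of all bases, 3.99% of arm bases and 16.4% of pericentromeric bases. Of 5809 annotated elements, 591 (10.2%) were under a stage 17 peak and 606 (10.4%) under a cycle 14 peak. The lists had 395 elements in common, 66.8% of those at stage 17 and 65.2% of those at cycle 14.

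Families differed widely. Among non-LTR elements, the F element had a stage 17 peak over 50 of 86 copies and a cycle 14 peak over 41, and jockey over 35 of 96 at stage 17 and 31 at cycle 14. Rt1b leaned to stage 17, with 33 of 60 copies against 14 at cycle 14, as did Rt1a, with 19 of 30 against 9. The LTR family 412 had 24 of 44 copies at stage 17 and 30 at cycle 14. LTR families leaning to cycle 14 were roo, with 25 of 144 copies at stage 17 and 43 at cycle 14, 17.6, with 5 of 28 and 16, and Quasimodo, with 9 of 38 at stage 17 and 21 at cycle 14. The DNA transposon H (hobo) had 15 of 60 copies at stage 17 and 24 at cycle 14, all 15 of the stage 17 copies being under a recurrent peak. INE-1, the most numerous family with 2235 mostly short copies, had 9 at stage 17 and 11 at cycle 14. Families were named after their values were seen, and copies of a family share sequence, so a read may come from another copy.

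Recurrent H3 peaks also overlapped the heterochromatin marks of the same stage. On the arms, an H3K9me3 peak was met by 66.2% (62.0 at the lower bound) of recurrent stage 17 peaks against 13.9% of stage 17-only peaks, and by 46.7% of recurrent cycle 14 peaks against 18.4% of cycle 14-only peaks. These H3K9me3 lists covered 3.16% of arm bases at stage 17 and 1.54% at cycle 14. For H3K9me2 the arm shares were 80.1% of recurrent and 32.1% of stage 17-only peaks, and 70.0% of recurrent and 25.8% of cycle 14-only peaks. The H3K9me2 lists covered 4.85% of arm bases at stage 17 and 2.06% at cycle 14. HP1a, which binds methylated H3K9 and was profiled at cycle 14, was met on the arms by 57.5% of recurrent cycle 14 and 25.8% of cycle 14-only peaks. Its list covered 1.67% of arm bases. Recurrent arm peaks were wider by median, with 447 against 328 bp at stage 17 and 244 against 165 bp at cycle 14. Wider peaks meet more marks, and width was not equalised in these overlaps.

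In the pericentromere most peaks of each class lay on these marks, with H3K9me3 at 96.5% of recurrent and 91.3% of stage 17-only peaks, and at 92.3% of recurrent and 75.6% of cycle 14-only peaks. The mark lists covered 14.1% of pericentromeric bases at stage 17 and 16% at cycle 14. In a second stage 17 H3K9me3 experiment the arm shares were 60.8% of recurrent and 10.9% of stage 17-only peaks. Arm peaks seen in H3 at cycle 14 only lay on the stage 17 H3K9me3 list in 25.8% of cases, against 18.4% on the cycle 14 list, and the stage 17 list covered the larger share of bases. The same copies and the same local background enter H3 and mark profiles, and their part in these overlaps was not tested.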

How the data were processed

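CUT&Tag libraries of whole control embryos were mapped to dm6 with Bowtie2 by the authors, who trimmed and deduplicated the reads, kept proper pairs with a minimum mapping quality, and called peaks with MACS2. FastQC and deepTools are also named in the submitters' processing notes, and these notes give no versions. The study's methods name snakePipes as the CUT&Tag workflow. The methods state a broad call, but the deposited H3 lists are of the narrow type and were called on pooled samples, and no control library is stated.

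Each deposited list holds positions, a fold ratio over the local background, a −log10 p-value and a −log10 q-value per peak, as the authors' peak caller wrote them. The number of fragments at each summit was solved from the deposited fold and −log10 p under the Poisson model, with an error of at most 0.000054 in −log10 p, and the solver was tested on simulated data. The total number of reads per library is not known from these lists, and the lowest local background stands in for depth. Peak numbers ran to 4691 at stage 17 and 3822 at cycle 14, and 551 and 927 of them had no peak, all before 2L, between 2R and 3L or between 4 and X. Regions off the 6 assembled arms were not analysed here. The sequences and positions of some peaks are not reported here, and these peaks are given by fold only.

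Peaks were compared by overlap of at least 1 bp. Features, starts and elements came from Ensembl release 115, and repeats, GC content and 31-mers from the RefSeq copy of Release 6. The pericentromere was taken as 2L from 22.0 Mb, 2R to 6.00 Mb, 3L from 23.0 Mb, 3R to 4.50 Mb and X from 22.0 Mb. The named regions were the 5 of highest fold and the 3 widest per class (of recurrent peaks the widest of each list is given), the named genes those of the gene lists with up to 4 examples of highest fold, and the 5 starts of highest fold per class, and exceptions are stated where they occur. The members and lists were chosen with earlier results of these data known. No test was run, since each stage had 1 list. The alternatives were a stricter overlap, a wider distance, a −log10 q of at least 3, equal list sizes, lists scaled to one background, arms only, other start definitions, annotated elements for masked bases and, added after seeing the data, peaks without a repeated 31-mer. Python 3.11.15, numpy 2.4.6, pandas 2.3.3, scipy 1.17.1 and matplotlib 3.10.9 were used.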

Additional observations from a re-analysis of the deposited data

How the results depend on the processing

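Of 76 alternative values, 42 stayed within the error of the value reported, 33 moved beyond it and 1 reversed. The recurrent share of the stage 17 list was 23.8%, and became 11.3% when an overlap of at least 50% of both peaks was required, 26.4% when peaks up to 500 bp apart counted, 29.7% when the list was reduced to the size of the cycle 14 list, 16% on the arms and 6.01% among peaks without a repeated 31-mer. For the cycle 14 list, at 39.2%, the same settings gave 16.1%, 45.0%, 34.7%, 31.2% and 14.8%, and a −log10 q of at least 3 gave 43.4%. The other values are stage 17-only minus cycle 14-only. The masked share was -18.7 percentage points, with -16.2 at 50% overlap, -23.2 at the stricter q, -13.8 on the arms, -14.6 for annotated elements and -4.79 without repeated 31-mers. Median GC content, 6.60, became 5.36, 5.66 and 4.68 at 50% overlap, on the arms and without repeated 31-mers. Median width, 161 bp, became 174 bp at 50% overlap, 200 bp at the stricter q and 203 bp at equal list size. The pericentromeric share, -13.4, was -15.9 at the stricter q and reversed to 0.0662 without repeated 31-mers. The start site share, 2.08, was 0.119 without extension, 7.10 with 1000 bp and 0.0362 for all genes. The coding exon share, 40.4, was 36.2 at 50% overlap and 44.3 at the stricter q. For recurrent minus stage 17-only peaks, the share with at least 50% repeated 31-mers, 61.1, was 64.3 at the stricter q and 58.2 on the arms, and for recurrent minus cycle 14-only peaks, 35.5, it was 42.1 on the arms. The causes were not tested. Scaling the deeper list to the background of the other moved none of these values beyond their error.

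No paired analysis was possible because each stage has 1 pooled list, and no single replicate was left out for the same reason. The depth limits calls to peaks of at least 19.0 fragments at stage 17 and 24 at cycle 14, the libraries behind the cycle 14 list are not settled, and peaks of one region are not independent.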
